A study of Mus musculus with 10 samples.

Results

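Fatty acid oxidation genes and targets of the peroxisome proliferator-activated receptors (PPARs) were followed in salivary gland cells of female NOD/ShiLtJ mice, an inbred strain in which immune cells attack the pancreatic islets and the salivary glands. The genes were a list of 34 given by name for their roles in fatty acid uptake, beta-oxidation and PPAR regulation. The naming rule contains no measured value, but the list was drawn up with earlier results of these data known. A probe set that names a single gene was present for 31 of the 34, and all 31 passed the filter on dim probe sets, out of 18826 genes tested in all. Acsl1, Ucp2 and Cpt1b had no such probe set and were not analysed here. The tissue of 4 diabetic mice (type 1 diabetes, 21 weeks old) was set beside that of 3 nondiabetic mice of 21 weeks and 3 nondiabetic mice of 6 weeks. All 10 samples share the strain and the sex, and the cells were freed from the gland with dispase II and collagenase IV before RNA was taken. The sources used here do not give how diabetes was scored, blood glucose, feeding, insulin treatment or which salivary gland was taken. The labels number the samples of a group but do not say that each came from its own mouse. They are called mice here, and the p-values measure the spread between these samples, which may be technical in part.

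As background, fatty acids enter a cell with the help of Cd36 and are bound, stored in lipid droplets or activated to acyl-CoA. The carnitine shuttle carries long acyl chains into the mitochondrion, where dehydrogenases, hydratases and thiolases shorten them in cycles and pass electrons to ubiquinone. PPARs are nuclear receptors that bind fatty acids, pair with retinoid X receptors and raise the transcription of many genes of this pathway, and Pdk4 and Angptl4 are among their best known targets in many tissues. Fasting and lack of insulin are known to raise Pdk4 in muscle, heart and liver.

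Values are the deposited log2 intensities, on which a difference of 1 is a 2-fold change, and a level is comparable between mice for the same probe set but not between genes. Differences were tested with limma over all 18826 genes with Benjamini-Hochberg adjustment of the p-values, and a gene was called when the adjusted p was under 0.05. The third nondiabetic array of 21 weeks differed most from the rest: its correlations over genes were 0.917 to 0.961, and those of the remaining 9 arrays with each other 0.934 to 0.983. It gave the lowest value of its group for 57.5% of all genes and for 16 of the 31 fatty acid genes. Of the salivary serous markers, Prol1, Aqp5 and Bhlha15 were bright on all 10 arrays, with a lowest value of 6.797, and were not called in any comparison. Smr3a, Amy1 and Bpifa2, which encode secreted saliva proteins, rose in diabetic mice against nondiabetic mice at 21 weeks, by 7.11, 5.23 and 2.71 on the log2 scale (adjusted p = 0.016, 0.00052 and 0.031). Smr3a was at 10.80 to 11.28 in diabetic mice, against 1.98 to 7.08 in nondiabetic mice at 21 weeks, where 1 array did not exceed its own 25th percentile. Dcpp1, the remaining serous marker, was at 10.87 to 11.16 in diabetic mice, against 3.11, 10.79 and 6.74 in nondiabetic mice at 21 weeks. That difference was not called (adjusted p = 0.11 by limma). The mean log2 intensity over the 7 serous markers was 10.3 to 10.5 on diabetic arrays, 6.89 to 8.34 on nondiabetic 21-week arrays and 8.06 to 9.70 on nondiabetic 6-week arrays. The markers of ducts and granular convoluted tubules averaged 6.33 to 7.39 on diabetic arrays, 8.39 to 8.65 on nondiabetic 21-week arrays and 7.86 to 8.18 on nondiabetic 6-week arrays. The part that this shift in secretory genes has in the results below was not tested, and in whole digests fewer cells of a type and less RNA per cell cannot be told apart. Since the gland taken is not given, whether all samples held the same gland or mix of glands is also unknown.

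The first comparison asked how the glands of diabetic mice differed from those of nondiabetic mice of the same age. In diabetic mice 5 of the 31 genes rose: Pdk4, Cd36, Acot1, Angptl4 and Eci2. None of the 31 fell, and 26 were not called. Among all 18826 genes tested, 1.10% were called higher and 0.340% were called lower in diabetic mice. An unadjusted p under 0.05 by limma was reached by 12 of the 31 genes, against 2978 of all 18826. Of the 17 oxidation enzymes outside the carnitine shuttle, the peroxisomal Acaa1a and Ehhadh among them, Eci2 was called. Of the other 14 genes, which cover glucose sparing, uptake, thioesters, the shuttle, Ucp3 and regulators, 4 were called. The split into 17 and 14 was made with earlier results of these data known. The median log2 difference was 0.02 over those 17 enzymes and 0.46 over the other 14 genes, against 0.03 over all genes tested, and it was 0.08 over all 31. The diabetic and the nondiabetic 21-week arrays did not overlap for 8 of the 31 genes with diabetic arrays higher, against 9.11% of all genes, and for 4 with diabetic arrays lower, against 4.98% of all genes.

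**Figure D1:**
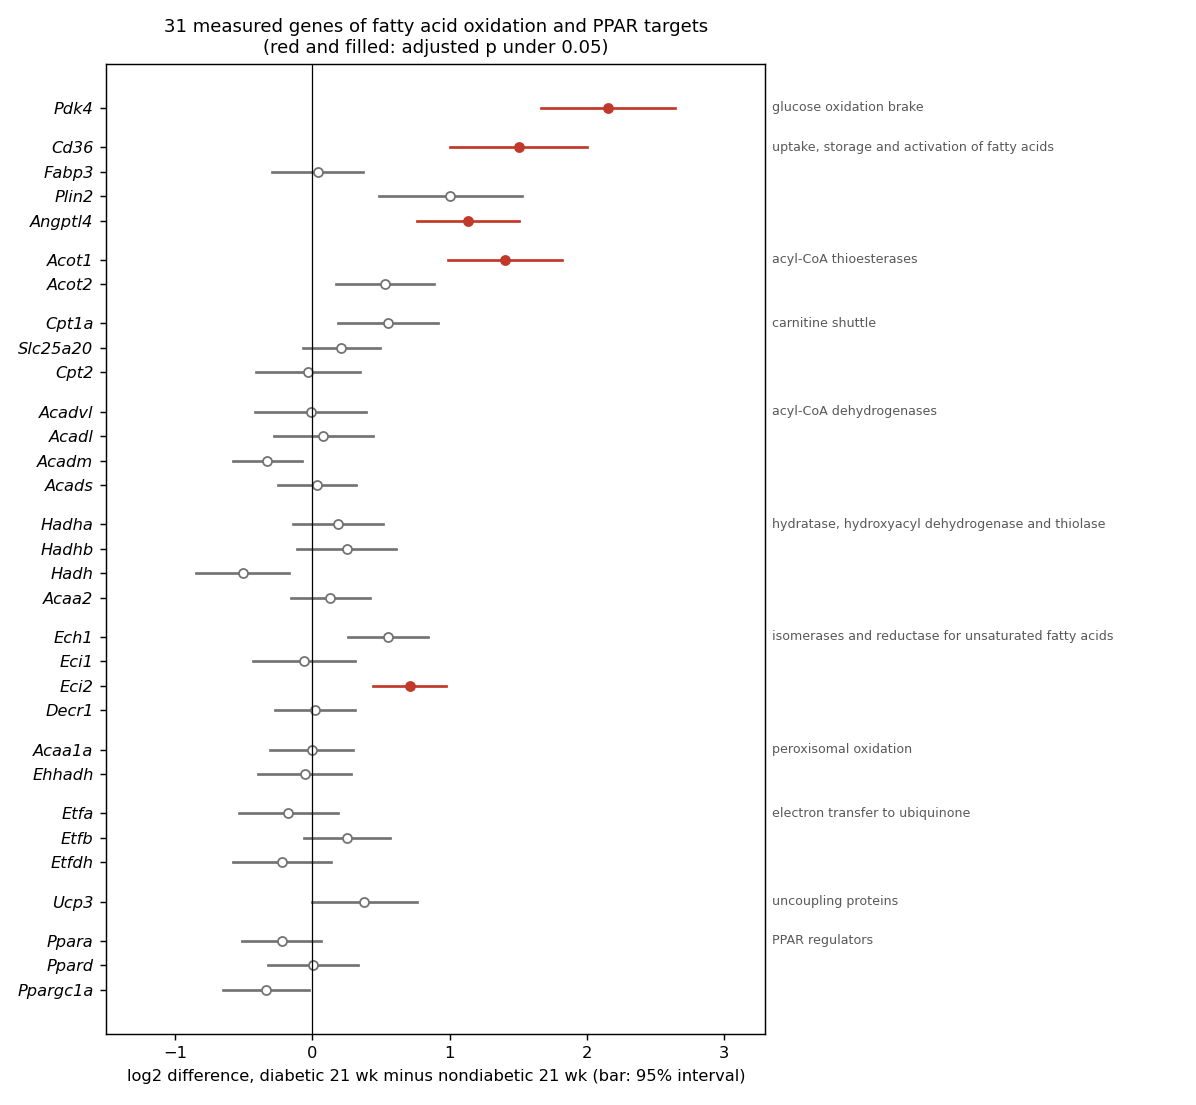
Log2 difference of each of the 31 measured genes, diabetic minus nondiabetic mice at 21 weeks (n = 4 and 3), with the 95% interval of the limma fit as a bar, ordered by role from top to bottom. The 5 red filled points passed an adjusted p of 0.05, from Eci2 at 0.71 to Pdk4 at 2.15, and most of the oxidation enzymes in the middle lie close to 0.

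Pdk4 showed the largest difference of the 31 genes. It encodes a mitochondrial kinase that switches off pyruvate dehydrogenase and so spares glucose when fatty acids are burnt. Its log2 intensity was 7.17, 7.66, 7.40 and 8.08 in diabetic mice, against 5.03, 5.76 and 5.49 in nondiabetic mice at 21 weeks and 6.79, 6.26 and 6.53 in nondiabetic mice at 6 weeks. Every diabetic array lay above every nondiabetic array of either age, and the 3 groups did not overlap. The diabetic mice averaged 7.58 ± 0.39 (SD, n = 4) and the nondiabetic 21-week mice 5.43 ± 0.37 (SD, n = 3), a log2 difference of 2.15 ± 0.22 (SE), or 4.44-fold (adjusted p = 0.00052).

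Of the 4 measured genes of uptake and storage, Cd36 and Angptl4 rose and Plin2 and Fabp3 were not called. Cd36, a membrane receptor that takes up fatty acids and oxidised lipoproteins, had log2 intensities of 6.85, 6.76, 7.58 and 7.19 in diabetic mice, against 5.60, 5.74 and 5.45 in nondiabetic mice at 21 weeks and 6.57, 5.79 and 6.67 in nondiabetic mice at 6 weeks. The diabetic arrays were all above the others, and 6-week array 2 lay close to the 21-week nondiabetic arrays. The log2 difference between diabetic and nondiabetic mice at 21 weeks was 1.505 ± 0.230 (SE), or 2.84-fold (adjusted p = 0.0077). Angptl4 encodes a secreted protein that blocks lipoprotein lipase at the vessel wall. Its log2 intensity was 4.61, 4.89, 4.82 and 4.73 in diabetic mice, against 3.89, 3.23 and 3.77 in nondiabetic mice at 21 weeks and 3.95, 3.48 and 3.67 in nondiabetic mice at 6 weeks. The diabetic arrays formed a narrow group above both nondiabetic groups, which overlapped each other. The log2 difference at 21 weeks was 1.13 ± 0.17 (SE), or 2.20-fold (adjusted p = 0.0070).

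Plin2 coats lipid droplets in most cells. Its log2 intensity was 5.91, 5.78, 5.94 and 5.41 in diabetic mice, against 4.75, 5.40 and 4.12 in nondiabetic mice at 21 weeks and 5.19, 4.995 and 4.95 in nondiabetic mice at 6 weeks. Diabetic array 4 and nondiabetic 21-week array 2 nearly touched, and the difference of 1.00 ± 0.24 (SE) did not pass the test (adjusted p = 0.064). Without nondiabetic 21-week array 2 the difference was 1.33 (adjusted p = 0.010), and without nondiabetic 21-week array 3 it was 0.69 (adjusted p = 0.20). Fabp3, a cytosolic fatty acid carrier of heart and muscle, had 2 probe sets, with log2 differences of 0.04 and -0.15, neither of which passed.

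Promoter windows of these genes are given because the list was drawn up around PPAR control. The windows are those of RefSeq on GRCm38.p6, with 250 bases before and 50 bases after a gene's annotated start, and 30 of the 34 genes had at least 1. They were searched on both strands for the direct repeat that PPARs bind with a retinoid X receptor, AGGTCA repeated with 1 base between (DR1), allowing 2 mismatches in the 12 fixed letters. The search also covered the exact hexamers AGGTCA and TATAAA, and an inverted repeat of AGAACA with 3 bases between, the glucocorticoid response element, again with 2 mismatches. A DR1 match was found in windows of 5 of the 30 genes, Cd36, Plin2, Slc25a20, Etfa and Ucp3, each with 10 of the 12 letters, and in 3.86% of all 32851 mouse windows. The lines below give each match in capitals with its flanks in lower case, read along the gene's strand. Its first base lies at -63 from the start in Cd36, -225 in Plin2, 7 in Slc25a20, -77 in Etfa and -51 in Ucp3.
Cd36: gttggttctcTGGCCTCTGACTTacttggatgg
Plin2: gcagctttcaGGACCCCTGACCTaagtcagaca
Slc25a20: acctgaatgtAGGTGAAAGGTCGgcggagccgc
Etfa: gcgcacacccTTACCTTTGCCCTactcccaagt
Ucp3: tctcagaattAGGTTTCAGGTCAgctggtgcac

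Of these 5 genes only Cd36 was called between diabetic and nondiabetic mice at 21 weeks, and the windows of Pdk4, Acot1 and Eci2, which were also called, held no match to any of the searched motifs. Angptl4, the remaining called gene, had no window and was not searched. The exact AGGTCA stood in windows of 6 of the 30 genes and in 16.3% of all windows, and it overlaps the DR1 match in Plin2 and Ucp3. TATAAA was in none of the 30 genes' windows and in 13.6% of all windows, and the glucocorticoid element in none and in 1.84%. These matches describe letters in short windows and were set against no measurement of binding. The whole windows of the most changed gene and of the called gene with a match are printed to show how they differ in base composition. That of Pdk4, on the minus strand at chr6:5496229-5496528, is 60.7% G and C with 12 CG dinucleotides. That of Cd36, on the minus strand at chr5:17835847-17836146, is 43% G and C with 3 CG dinucleotides, against medians of 52.7% and 7 over all windows, and its DR1 match is in capitals.
Pdk4: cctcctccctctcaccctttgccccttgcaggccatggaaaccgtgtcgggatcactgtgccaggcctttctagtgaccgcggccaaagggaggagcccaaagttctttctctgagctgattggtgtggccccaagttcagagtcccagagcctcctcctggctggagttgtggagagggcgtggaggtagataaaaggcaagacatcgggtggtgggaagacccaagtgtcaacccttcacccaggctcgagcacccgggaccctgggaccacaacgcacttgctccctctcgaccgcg
Cd36: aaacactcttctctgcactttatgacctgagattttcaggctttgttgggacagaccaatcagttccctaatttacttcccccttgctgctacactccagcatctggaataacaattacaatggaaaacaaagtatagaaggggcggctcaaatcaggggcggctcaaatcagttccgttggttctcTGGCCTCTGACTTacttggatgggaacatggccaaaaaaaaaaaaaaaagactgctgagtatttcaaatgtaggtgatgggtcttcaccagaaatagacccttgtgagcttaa

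Acyl-CoA thioesterases split acyl-CoA back into free fatty acid and coenzyme A, and 1 of the 2 measured was called. Acot1, the cytosolic enzyme, had log2 intensities of 5.38, 5.14, 5.002 and 4.80 in diabetic mice, against 3.72, 3.97 and 3.33 in nondiabetic mice at 21 weeks and 4.27, 4.77 and 4.24 in nondiabetic mice at 6 weeks. The 3 groups did not overlap, although diabetic array 4 and 6-week array 2 lay next to each other. The log2 difference between diabetic and nondiabetic mice at 21 weeks was 1.40 ± 0.19 (SE), or 2.65-fold (adjusted p = 0.0038). Acot2, the mitochondrial enzyme, had log2 intensities of 7.18, 7.40, 7.68 and 7.44 in diabetic mice, against 6.93, 7.17 and 6.58 in nondiabetic mice at 21 weeks and 7.03, 6.83 and 6.64 in nondiabetic mice at 6 weeks. All diabetic arrays were above all nondiabetic ones, by little between diabetic array 1 and nondiabetic 21-week array 2, and the log2 difference of 0.53 ± 0.17 (SE) did not pass (adjusted p = 0.15). The genes are near copies on chromosome 12, so how far their probes are shared is uncertain.

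**Figure D2:**
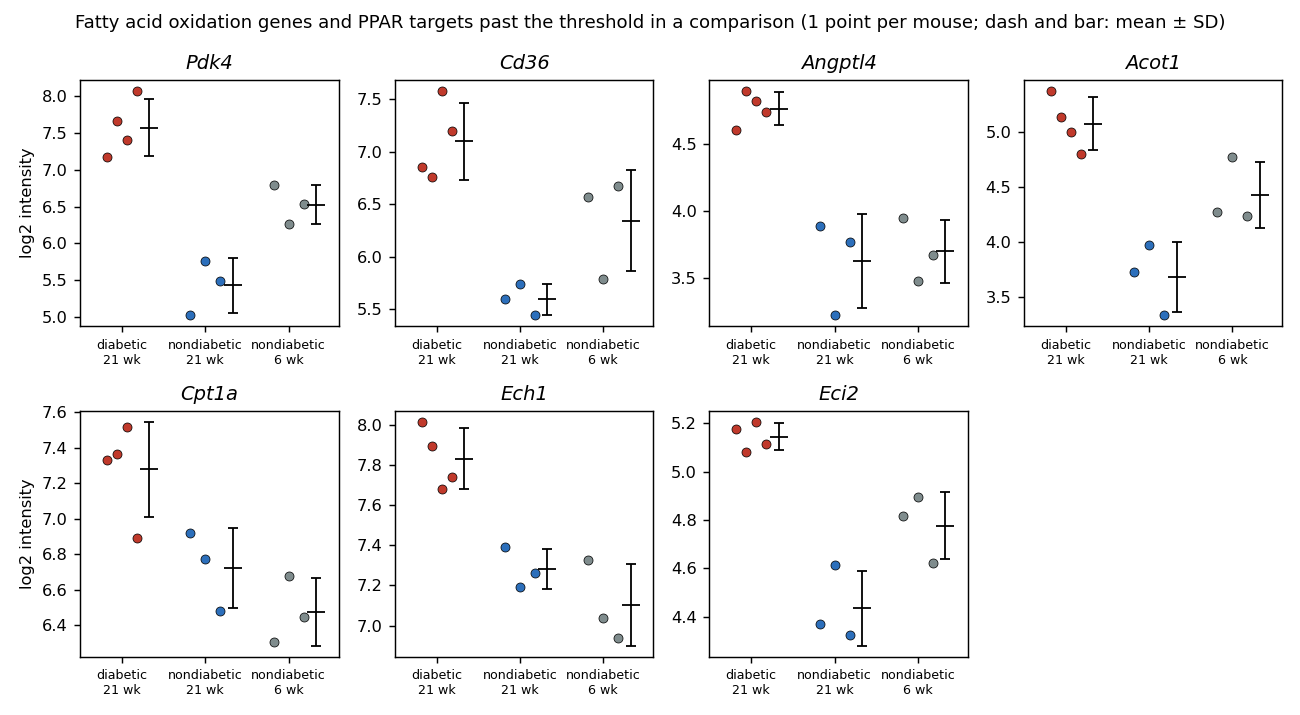
Log2 intensity (vertical axis, scaled to each gene) of the 7 genes called in at least 1 comparison, with 1 point per mouse and the mean ± SD beside it, for diabetic 21-week (n = 4), nondiabetic 21-week (n = 3) and nondiabetic 6-week mice (n = 3). Pdk4 and Acot1 are lowest in nondiabetic mice at 21 weeks, whereas Angptl4, Cpt1a and Ech1 have the nondiabetic groups close together.

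The carnitine shuttle had 0 of 3 measured genes called between diabetic and nondiabetic mice at 21 weeks by limma, and 1 of the 3 had an unadjusted p under 0.05. That was Cpt1a, the outer membrane enzyme that sets the pace of entry into the mitochondrion, with log2 intensities of 7.33, 7.36, 7.52 and 6.89 in diabetic mice, against 6.92, 6.77 and 6.48 in nondiabetic mice at 21 weeks and 6.30, 6.68 and 6.44 in nondiabetic mice at 6 weeks. Diabetic array 4 was the low one and lay below nondiabetic 21-week array 1. The log2 difference at 21 weeks was 0.55 ± 0.17 (SE; adjusted p = 0.14). Slc25a20, which exchanges acylcarnitine for carnitine across the inner membrane, had log2 intensities of 5.59, 5.73, 5.71 and 5.50 in diabetic mice, against 5.56, 5.26 and 5.42 in nondiabetic mice at 21 weeks and 5.48, 5.46 and 5.18 in nondiabetic mice at 6 weeks. Its difference was 0.21 (adjusted p = 0.45), with a 95% interval from -0.07 to 0.49. Cpt2, which re-forms acyl-CoA inside, differed by -0.03.

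Among the 4 genes that handle the double bonds of unsaturated fatty acids, Eci2 rose. Eci2 encodes an enoyl-CoA isomerase found in mitochondria and peroxisomes. Its log2 intensity was 5.17, 5.08, 5.21 and 5.11 in diabetic mice, against 4.37, 4.61 and 4.33 in nondiabetic mice at 21 weeks and 4.81, 4.89 and 4.62 in nondiabetic mice at 6 weeks. The 3 groups did not overlap, with the diabetic arrays highest and the 21-week nondiabetic arrays lowest, although nondiabetic 21-week array 2 and 6-week array 3 nearly touched. The log2 difference at 21 weeks was 0.71 ± 0.12 (SE), or 1.63-fold (adjusted p = 0.015), and it no longer passed without diabetic array 3 (adjusted p = 0.055), nondiabetic 21-week array 1 (0.052) or nondiabetic 21-week array 3 (0.065).

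Ech1, a dienoyl-CoA isomerase, had log2 intensities of 8.01, 7.89, 7.68 and 7.74 in diabetic mice, against 7.39, 7.19 and 7.26 in nondiabetic mice at 21 weeks and 7.33, 7.04 and 6.94 in nondiabetic mice at 6 weeks. Diabetic arrays were above all others, and the difference at 21 weeks of 0.55 ± 0.14 (SE) fell short of the threshold (adjusted p = 0.067). Eci1, the mitochondrial isomerase, and Decr1, the dienoyl-CoA reductase, differed by -0.06 and 0.02.

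The core of the mitochondrial cycle did not pass the test. The 4 acyl-CoA dehydrogenases, which open the cycle for chains of falling length (Acadvl, Acadl, Acadm and Acads), gave log2 differences from -0.33 to 0.08. Acadm, the medium-chain enzyme, had log2 intensities of 7.38, 7.32, 7.32 and 7.13 in diabetic mice, against 7.63, 7.54 and 7.69 in nondiabetic mice at 21 weeks and 7.58, 7.46 and 7.67 in nondiabetic mice at 6 weeks. All diabetic arrays were below all nondiabetic ones, and the difference at 21 weeks was -0.33 ± 0.12 (SE; adjusted p = 0.20). Of the hydratase, hydroxyacyl dehydrogenase and thiolase genes (Hadha, Hadhb, Hadh and Acaa2), none was called, and 1 of the 4 had an unadjusted p under 0.05. That was Hadh, the dehydrogenase for shorter chains, with log2 intensities of 7.97, 8.06, 7.71 and 7.42 in diabetic mice, against 8.43, 8.16 and 8.31 in nondiabetic mice at 21 weeks and 8.05, 7.88 and 8.07 in nondiabetic mice at 6 weeks. Diabetic arrays were below the nondiabetic 21-week arrays and overlapped the 6-week arrays, and the difference at 21 weeks was -0.51 ± 0.16 (SE; adjusted p = 0.14). Hadhb was dim, with group means of 3.21 and 2.96, close to the arrays' 25th percentiles of 2.58 to 2.70.

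Electrons leave the dehydrogenases through the flavoprotein Etfa and Etfb and the reductase Etfdh, and none of the 3 was called. Etfb had log2 intensities of 6.83, 6.49, 6.55 and 6.26 in diabetic mice, against 6.26, 6.40 and 6.18 in nondiabetic mice at 21 weeks and 6.29, 6.22 and 6.00 in nondiabetic mice at 6 weeks, with diabetic array 1 the high one. Its difference at 21 weeks was 0.25 (adjusted p = 0.42), against -0.17 for Etfa and -0.22 for Etfdh. Acaa1a and Ehhadh, the peroxisomal thiolase and bifunctional enzyme, differed by -0.0032 and -0.05. The 14 genes not given array by array here had differences from -0.22 to 0.25, and their 95% intervals reached no lower than -0.58 and no higher than 0.61. Diabetic array 4 was the lowest of its group for 12 of the 17 oxidation enzymes and for 31.6% of all genes. The mean log2 intensity over the 17 enzymes was 6.38, 6.39, 6.21 and 6.01 on diabetic arrays 1 to 4, against 6.23, 6.22 and 6.14 on nondiabetic 21-week arrays and 6.20, 6.20 and 6.14 on nondiabetic 6-week arrays. Without diabetic array 4 the median difference of the 31 genes was 0.20.

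**Figure D3:**
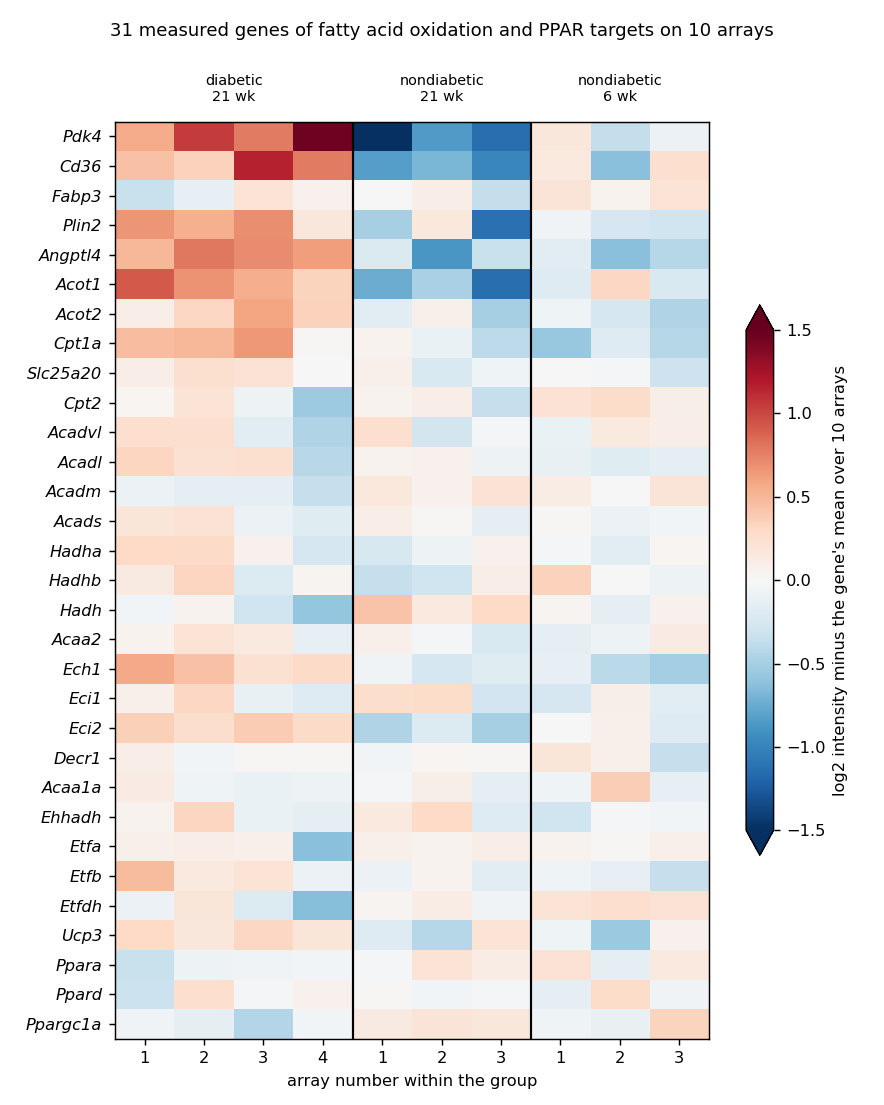
Log2 intensity of the 31 measured genes on the 10 arrays, each as its distance from the gene's mean over all arrays (red above, blue below, with the colour scale ending just short of the most extreme value), with genes in rows by role and arrays in columns, diabetic first. Pdk4, Cd36, Angptl4 and Acot1 are red across the 4 diabetic arrays, and diabetic array 4, the lowest of its group for 12 of the 17 oxidation enzymes, is mostly blue for them.

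The receptors themselves did not pass the test. Ppara, the PPAR of oxidative tissues, had log2 intensities of 4.14, 4.40, 4.42 and 4.43 in diabetic mice, against 4.44, 4.68 and 4.58 in nondiabetic mice at 21 weeks and 4.69, 4.33 and 4.62 in nondiabetic mice at 6 weeks. The diabetic arrays were just below the nondiabetic 21-week arrays, with a difference of -0.22 ± 0.13 (SE; adjusted p = 0.44). Ppard, the widely expressed receptor, had log2 intensities of 4.66, 5.24, 4.96 and 5.04 in diabetic mice, against 4.996, 4.94 and 4.97 in nondiabetic mice at 21 weeks and 4.84, 5.26 and 4.93 in nondiabetic mice at 6 weeks. The groups overlapped, and the difference of 0.01 had a 95% interval from -0.32 to 0.34. Ppargc1a, a coactivator that drives mitochondrial genes, had log2 intensities of 6.37, 6.29, 5.98 and 6.38 in diabetic mice, against 6.55, 6.61 and 6.60 in nondiabetic mice at 21 weeks and 6.36, 6.31 and 6.76 in nondiabetic mice at 6 weeks. Diabetic arrays were below the 21-week nondiabetic arrays by -0.33 ± 0.14 (SE; adjusted p = 0.28). Ucp3, a mitochondrial carrier induced by fatty acids in muscle, had log2 intensities of 3.74, 3.61, 3.76 and 3.62 in diabetic mice, against 3.24, 3.01 and 3.65 in nondiabetic mice at 21 weeks and 3.37, 2.88 and 3.504 in nondiabetic mice at 6 weeks. The diabetic values were close together and met the nondiabetic range at 21-week array 3, and the difference was 0.38 ± 0.18 (SE; adjusted p = 0.32).

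Other genes of fatty acid and ketone metabolism were read from companion lists of 72 measured genes. Between diabetic and nondiabetic mice at 21 weeks 2 rose, 2 fell and 68 were not called, and the median log2 difference was -0.03. Slc27a1, a fatty acid transport protein of the cell surface, was at 6.29 to 6.87 in diabetic mice, against 5.74 to 6.00 in nondiabetic mice at 21 weeks, a log2 difference of 0.72 ± 0.15 (SE; adjusted p = 0.035). Fabp4, a fatty acid carrier of adipocytes, macrophages and capillary endothelium, was at 7.72 to 8.34 in diabetic mice, against 6.36 to 6.803 in nondiabetic mice at 21 weeks, a difference of 1.37 ± 0.24 (SE; adjusted p = 0.015). Oxct1, the enzyme by which tissues outside the liver use ketone bodies, had log2 intensities of 6.85, 7.04, 6.40 and 5.96 in diabetic mice, against 8.12, 8.06 and 8.09 in nondiabetic mice at 21 weeks and 8.03, 7.99 and 8.21 in nondiabetic mice at 6 weeks. All diabetic arrays were below all nondiabetic arrays, which lay close together at both ages, and the difference at 21 weeks was -1.53 ± 0.21 (SE), or 2.88-fold lower (adjusted p = 0.0039). Acadsb, a dehydrogenase for short branched chains from isoleucine, was at 6.04 to 6.62 in diabetic mice, against 6.96 to 7.43 in nondiabetic mice at 21 weeks, a difference of -0.75 ± 0.16 (SE; adjusted p = 0.040).

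By list, uptake and lipid droplet genes had 2 of 19 higher, which were Slc27a1 and Fabp4. Other acyl-CoA synthetases and thioesterases had 0 of 9 called, with 2 at an unadjusted p under 0.05, Acsl4 at 0.39 and Acot13 at -0.60. Other oxidation genes had 1 of 17 lower, Acadsb, and the next by p was Hsd17b10 at -0.42 (adjusted p = 0.18). Ketone body genes had 1 of 5 lower, Oxct1, and the next was Bdh1, which interconverts the ketone bodies, at -0.49 (adjusted p = 0.21). Subunits, kinases and phosphatases of pyruvate dehydrogenase and the pyruvate carriers had 0 of 9 called, with 1 at an unadjusted p under 0.05. That was Mpc1, a subunit of the mitochondrial pyruvate carrier, at -0.78 (adjusted p = 0.088), followed by Dlat at -0.20. The kinases Pdk1, Pdk2 and Pdk3, relatives of Pdk4 chosen here after their values were seen, differed by 0.12, -0.14 and -0.08. Other regulators had 0 of 13 called and 4 at an unadjusted p under 0.05, led by Sirt3, a mitochondrial deacetylase, at -0.50 (adjusted p = 0.12) and Lpin1, a coactivator of Ppara, at 0.47 (adjusted p = 0.14).

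**Figure D4:**
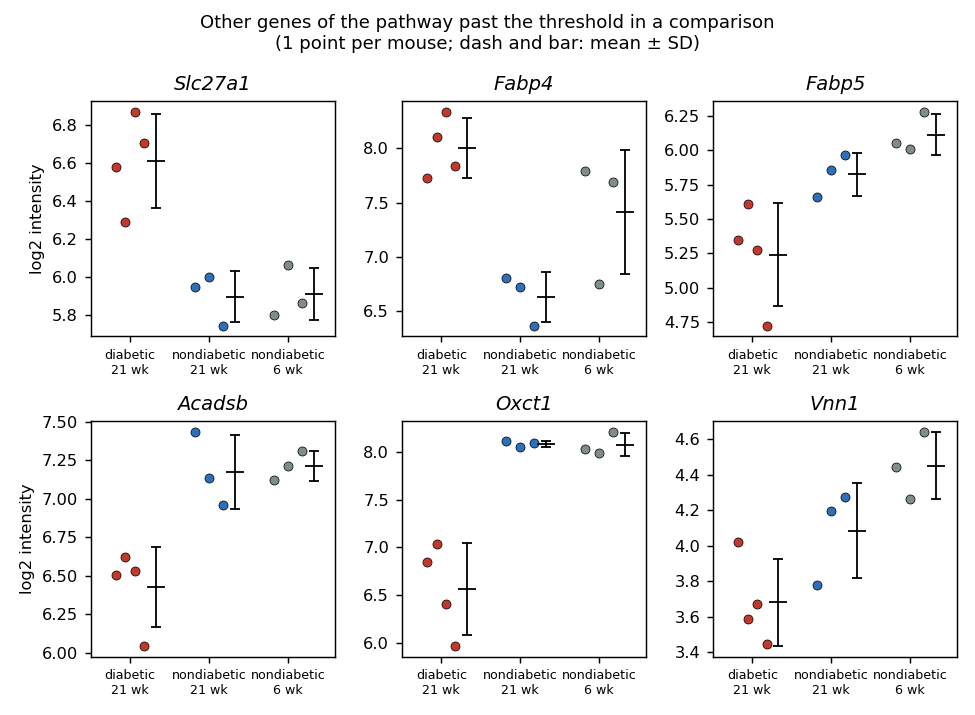
Log2 intensity (vertical axis, scaled to each gene) of the 6 companion genes called in at least 1 comparison, with 1 point per mouse and the mean ± SD beside it, for diabetic 21-week (n = 4), nondiabetic 21-week (n = 3) and nondiabetic 6-week mice (n = 3). The uptake genes Slc27a1 and Fabp4 are higher in diabetic than in nondiabetic mice at 21 weeks, whereas Oxct1 and Acadsb are low in diabetic mice and level between the nondiabetic ages.

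Several of the called genes are also expressed by fat cells and macrophages, so marker lists of other cell types were read on the same arrays. The mean of 7 white adipocyte markers was 4.70 to 5.15 on diabetic arrays, against 3.62 to 4.11 on nondiabetic 21-week arrays and 3.99 to 4.13 on nondiabetic 6-week arrays. Of the 7, Car3, Fabp4 and Retn rose in diabetic mice at 21 weeks, and Fabp4 is also among the companion genes. Adipoq, which defines the fat cell, was at 2.78 to 3.15 in diabetic mice, against 2.41 to 2.78 in nondiabetic mice at 21 weeks, close to the arrays' 25th percentiles, and neither it nor Plin1 nor Lep was called. The mean of 6 macrophage markers was 5.27 to 6.11 on diabetic arrays, against 4.51 to 4.94 on nondiabetic 21-week arrays and 4.62 to 5.20 on nondiabetic 6-week arrays, with Cd68 and Mrc1 called higher at 21 weeks. Diabetic array 3 was highest for these macrophage markers and for Cd36, and without it Cd36 differed by 1.34 (adjusted p = 0.024). The part of adipocytes and macrophages in these results was not tested. Endothelial markers averaged 5.21 to 5.58 on diabetic arrays, against 4.97 to 5.53 on nondiabetic 21-week arrays, and skeletal muscle markers 3.99 to 4.06 on diabetic arrays, against 3.97 to 4.25 on nondiabetic 21-week arrays. By limma 0 of 6 were called in each of these lists, with 0 and 2 at an unadjusted p under 0.05, and of 4 brown adipocyte markers 0 were called and 2 had an unadjusted p under 0.05. Lymphocyte markers averaged 5.93 on diabetic array 4, against 4.33 to 4.50 on the other diabetic arrays and 4.09 to 4.75 on nondiabetic 21-week arrays, and none of the 6 was called, with 1 at an unadjusted p under 0.05. Myoepithelial markers averaged 5.22 to 5.72 on diabetic arrays, against 3.87 to 4.86 on nondiabetic 21-week arrays, with 2 of 4 called higher.

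**Figure D5:**
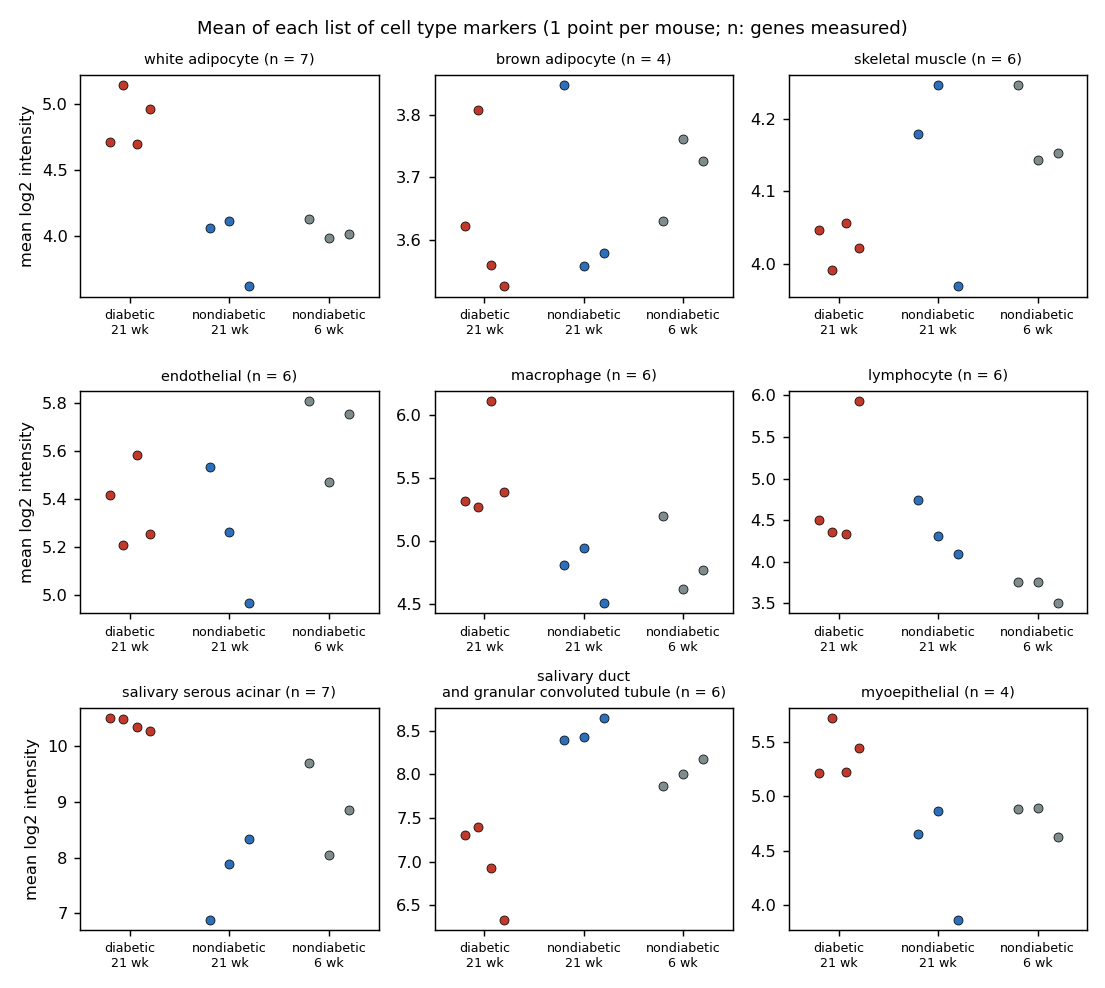
Mean log2 intensity of 9 lists of cell type markers (vertical axis, scaled to each list), with 1 point per mouse, for diabetic 21-week (n = 4), nondiabetic 21-week (n = 3) and nondiabetic 6-week mice (n = 3). Means of white adipocyte, macrophage, serous acinar and myoepithelial markers are high on the diabetic arrays, and those of duct and tubule markers are low. Endothelial and brown adipocyte means overlap between the 21-week groups. Among the serous markers Smr3a, Amy1, Bpifa2 and Dcpp1 lie higher in diabetic mice, whereas Aqp5, Bhlha15 and Prol1 differ by 0.10, -0.28 and -0.12 at 21 weeks.

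The second comparison asked how nondiabetic glands at 21 weeks differed from those at 6 weeks. By limma 0 of the 31 genes were called, against 0.0266% of all genes. An unadjusted p under 0.05 was reached by 4 of the 31, against 1406 of all 18826 genes. The 4 genes were Pdk4, Acot1, Cd36 and Eci2, all with lower values at 21 weeks. Pdk4 averaged 5.43 ± 0.37 at 21 weeks and 6.53 ± 0.26 at 6 weeks (SD, n = 3 each), a log2 difference of -1.102 ± 0.240 (SE; adjusted p = 0.31). Acot1 and Cd36 differed by -0.75 each (adjusted p = 0.48 and 0.57) and Eci2 by -0.34 (adjusted p = 0.63). Angptl4, which was called between diabetic and nondiabetic mice, differed by -0.07, with a 95% interval from -0.47 to 0.32. The groups did not overlap for 2 genes with 21-week arrays higher, Acadl and Hadh, against 4.11% of all genes. They did not overlap for 5 with 21-week arrays lower, Pdk4, Cd36, Acot1, Eci2 and Etfdh, against 9.73% of all genes. Genes at large thus also leaned lower at 21 weeks, but without nondiabetic 21-week array 3 their median difference was -0.0017. The median difference of the 31 genes was 0.02, against -0.06 over all genes, and 0 of the 72 companion genes were called, with 6 at an unadjusted p under 0.05. This comparison shares the nondiabetic 21-week arrays with the first, so a low value there lowers 1 difference and raises the other.

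The third comparison set diabetic mice at 21 weeks against nondiabetic mice at 6 weeks, in which diabetes and age change together. Angptl4, Cpt1a, Ech1 and Pdk4 rose, none of the 31 fell and 27 were not called, against 0.903% of all genes called higher and 0.542% called lower. By limma 13 of the 31 had an unadjusted p under 0.05, against 2811 of all 18826 genes. Angptl4 averaged 4.76 ± 0.12 in diabetic mice (SD, n = 4) and 3.70 ± 0.23 in 6-week mice (SD, n = 3), a log2 difference of 1.06 ± 0.17 (SE), or 2.09-fold (adjusted p = 0.011). The value for Pdk4 was 1.05 ± 0.22 (SE; adjusted p = 0.041), for Cpt1a 0.80 ± 0.17 (SE; adjusted p = 0.037) and for Ech1 0.73 ± 0.14 (SE; adjusted p = 0.023). Cd36 differed by 0.75 (adjusted p = 0.14), Acot1 by 0.65 (adjusted p = 0.12) and Eci2 by 0.37 (adjusted p = 0.17), with diabetic arrays above the 6-week arrays for all 3. The groups did not overlap for 11 of the 31 genes with diabetic arrays higher, against 8.20% of all genes, and for Acadm and Etfdh with diabetic arrays lower, against 8.49%. The median over the 31 was 0.14, against -0.02 over all genes.

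Leaving out single arrays ended calls of this comparison. Without 6-week array 2 or without 6-week array 3, 0 of the 31 were called by limma, with 11 and 9 at an unadjusted p under 0.05. Over all genes 2179 of 18752 and 2247 of 18730 had such a p in those fits. Without diabetic array 2 only Angptl4 was called. Cpt1a was also lost without diabetic array 1 or 3, nondiabetic 21-week array 2 or 6-week array 1, and Pdk4 without diabetic array 3 or 4 or 6-week array 1, without a filter on dim probe sets and with quantile normalization. Among companion genes Slc27a1 rose in diabetic mice against 6-week mice (0.70; adjusted p = 0.038). Oxct1 fell by 1.52, Fabp5, an epidermal fatty acid carrier, by 0.87, Acadsb by 0.79 and Vnn1, a pantetheinase known as a Ppara target in liver, by 0.77 (adjusted p = 0.0047, 0.038, 0.034 and 0.045). White adipocyte markers Car3 and Retn were called higher in this comparison too, and by limma 0 of the 6 macrophage markers were called, with 4 at an unadjusted p under 0.05. Of the salivary markers Amy1 and the myoepithelial Acta2 were called higher, by 3.79 and 1.18, and the tubule kallikrein Klk1b22 was called lower, by -3.31. The 6 lymphocyte markers all had higher means in diabetic mice, with a median difference of 1.11, and 5 of them had an unadjusted p under 0.05 and did not overlap. By limma 0 of those 6 and 0 of the 6 endothelial markers were called. Of the endothelial markers 2 had an unadjusted p under 0.05, among them Kdr at -1.06 (adjusted p = 0.055). The part of these cell types in the differences from 6-week mice was not tested.

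Over the 3 groups, the mean was highest in diabetic mice for 17 of the 31 genes, in nondiabetic mice at 21 weeks for 7 and in nondiabetic mice at 6 weeks for 7. Over all genes these shares were 37.1% for diabetic mice, 23.7% for nondiabetic mice at 21 weeks and 39.2% for nondiabetic mice at 6 weeks. For Pdk4, Cd36, Acot1 and Eci2 the order was diabetic, then nondiabetic at 6 weeks, then nondiabetic at 21 weeks, and the nondiabetic ages differed for none of the 4 at an adjusted p under 0.05. Diabetic mice differed from their neighbour in that order, the 6-week mice, for Pdk4 and not at that threshold for Cd36, Acot1 and Eci2. This split is not firm, since the call for Pdk4 held under 10 of 20 alternatives. Acot1 was called by limma with array weights (adjusted p = 0.045) and without nondiabetic 21-week array 3 and diabetic array 4 (adjusted p = 0.040). Angptl4 had that order of means too, at 4.76, 3.70 and 3.63, and so did genes that were not called, such as Plin2. For Angptl4 the nondiabetic means lay close together, and diabetic mice were called higher than both nondiabetic groups. For Cpt1a and Ech1 nondiabetic mice at 21 weeks came between, and their difference from either neighbour did not reach an adjusted p under 0.05.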

How the data were processed

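RNA of 10 salivary gland digests was measured on Affymetrix arrays. The authors deposited 1 value per probe set and sample, a log2 intensity made by RMA with Affymetrix Power Tools; the method and software are named in the submitters' processing notes, with versions and settings not given in the sources used here. RMA as usually run sets the probes of all arrays to a common distribution, so a change in total RNA is not seen.

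From these values, probe sets with 1 gene symbol were used if 3 or more arrays gave a value over the 25th percentile of that array, and the one with the highest mean stood for each gene. A model with a mean per group over all 10 arrays was fitted to 18826 genes by lmFit and eBayes of limma 3.58.1 under R 4.3.3, with two-sided p-values, Benjamini-Hochberg adjustment over all genes and a threshold of 0.05. The number of arrays limits the precision. The genes of the pathway, the companion and marker lists and the tests were chosen with earlier results of these data known. Array values are given for genes past the threshold in a comparison, for a fixed set (Pdk4, Acot1, Acot2, Angptl4, Cd36, Cpt1a, Plin2, Ucp2, which was not analysed here, Ucp3, Ppara, Ppard, Ppargc1a) and for the 4 others with the smallest p in the first comparison. Companion genes named are those past the threshold and the 2 with the smallest p of each list, and others are said to be chosen after their values were seen. Alternatives were other filters, averaging of all probe sets per gene, other variance models, array weights, quantile normalization, median centring, a stricter threshold, a fit of 2 groups, omission of each array in turn and of the pair that stood apart, and a block for the replicate number. The steps were tested on simulated data. Promoter windows came from RefSeq. No hybridisation or scan batch is given in the sources used here.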

Additional observations from a re-analysis of the deposited data

Results flagged for a closer look

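In the diabetic group of 4, the array farthest from the rest was tested for each of the 31 genes by Dixon's criterion, and 3 stood apart, where chance alone gives about 1 in 20. Acadl was at 6.71 on diabetic array 4, against 7.35 to 7.45 on the other diabetic arrays. Etfa was at 6.74 on the same array, against 7.44 to 7.47 on the others. Ppara was at 4.14 on diabetic array 1, against 4.40 to 4.43 on the others. Diabetic array 4 also had the highest lymphocyte marker mean of its group, 5.93, and the part of this in the low values was not tested.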

How the results depend on the processing

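Pdk4, Acot1, Angptl4 and Cd36 were called higher in diabetic than in nondiabetic mice at 21 weeks under all 20 alternatives, with adjusted p no higher than 0.0044, 0.019, 0.028 and 0.049, and Eci2 under 16 (adjusted p from 0.0095 to 0.065). Leaving out 1 array at a time gave 4 to 6 called of the 31 in that comparison, 0 for age and 0 to 4 for diabetic against 6-week mice, where an adjusted p under 0.01 left 0 (13 at an unadjusted p under 0.05) and array weights gave 7. Ech1 and Plin2 joined the calls at 21 weeks under some settings (adjusted p from 0.010 to 0.049). The median over the 31 genes lay between -0.03 (quantile normalization) and 0.20 in that comparison. Over all genes it called 271 (207 higher, 64 lower), but 130 higher and 100 lower with quantile normalization, 69 at an adjusted p under 0.01, 161 in a fit of the 2 groups, 176 without nondiabetic 21-week array 3 and diabetic array 4, and 84 to 267 with 1 array left out. Diabetic against 6-week mice called 272 (170 higher, 102 lower), but 157 higher and 162 lower with quantile normalization, 58 at 0.01, 672 with array weights, 508 without both arrays and 48 to 400 with 1 left out. Age called 5 genes, 12 with trended and robust variance, 18 with array weights, 42 without both arrays, 3 at 0.01, 1 to 10 with 1 array left out and 0 in a fit of the 2 groups by limma, where 1377 had an unadjusted p under 0.05. For age, Angptl4 ranged from -0.20 to 0.13 and Plin2 from -0.61 to 0.029 with 1 array left out, the sign turning for Plin2 also without both arrays (0.029), and neither was called. The causes of these changes were not tested. With the replicate number as a block, 5 of the 31 genes and 204 genes in all were called for diabetes, 0 and 4 for age, and 3 and 206 for diabetic against 6-week mice, where Pdk4 was lost. Deviations of same-numbered arrays from their group means had correlations from -0.12 to 0.07. Differently numbered arrays were not compared in this way, so whether the numbers pair the samples was not settled. Signal limits Hadhb, Adipoq and Lep, which lay near the arrays' 25th percentiles. Ucp3 was dim too, with a lowest value of 2.88, and Angptl4 had a lowest value of 3.23, in a nondiabetic 21-week mouse.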

Other observations

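Lipoprotein lipase (Lpl), which frees fatty acids from circulating triglyceride and which the Angptl4 protein inhibits, was picked out after its values were seen. Its log2 intensity was 5.48, 5.40, 5.43 and 5.41 in diabetic mice, against 4.39, 4.39 and 4.35 in nondiabetic mice at 21 weeks and 5.64, 4.04 and 4.90 in nondiabetic mice at 6 weeks. The groups of 21-week mice were each very tight and lay apart, while the 6-week mice spanned both. The log2 difference at 21 weeks was 1.06 with an adjusted p of 0.070 when limma pooled the spread over all 3 groups, and an adjusted p of 0.0027 when the fit held only the 21-week groups, an alternative chosen after seeing the data.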
